A study of Mus musculus with 14 samples.

Results

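Muscle of mice on a diet with β-lapachone (βL) was compared with muscle of mice on calorie restriction (CR), with no control array in the comparison. It rests on 6 of the 14 arrays of the series, 3 of βL muscle and 3 of CR muscle, and on every probe that was above background on at least 2 of these 6, which left 12224 of 25697 probes, or 8663 genes. The βL mice were fed freely on a diet that held 0.066% βL, and the CR mice were given 70% of the food of the control diet. All were male C57BL/6 mice that began their diets at 13 months of age. The remaining arrays hold 2 muscle samples of mice fed the control diet freely and 6 brain samples of the same 3 diets. The sources used here name neither the muscle taken nor the time on the diet for the arrays, and whether the replicates of a diet are different animals is not stated. A p-value here thus sets a difference against the spread of these arrays, whether biological or technical.

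βL is a quinone that the cytosolic enzyme NQO1 uses as a co-substrate, so that NADH is oxidized to NAD+. CR is a lasting cut in food intake without malnutrition and is widely used in research on ageing. Skeletal muscle is built of slow-twitch and fast-twitch fibres, which use different forms of myosin, troponin and tropomyosin, and it also holds macrophages, fibroblasts, vessels, nerve, fat cells and the blood that is left in it.

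Each of the 6 arrays had a median intensity of 149.8 to 160.7 and 11123 to 11786 probes above background, that is with a detection p under 0.05. All 12 markers of skeletal muscle in the list used here were detected, with a summed level of 391163 to 408459 on βL arrays and 404914 to 427233 on CR arrays. All values below are log2 normalized intensities, and each difference is βL minus CR on that scale. βL replicate 2 lay nearer to the CR arrays than to its own group, with mean correlations over probes of 0.985 and 0.982. Its correlation with its own group was no lower than that of βL replicate 1 (0.981) or βL replicate 3 (0.982). βL replicates 1 and 3 had mean correlations of 0.976 with the CR arrays. Among the CR arrays, replicate 1 lay nearest to the βL arrays, at 0.982. Counts are therefore also given without βL replicate 2 and without CR replicate 1. Both were picked for lying nearest to the other diet, so leaving either out tends to enlarge the differences. Those counts and calls are thus a description and add no support.

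Of all genes measured, Lcn2 alone passed the test between the 2 diets. Limma called 1 of 12224 probes after Benjamini-Hochberg adjustment (0.00818% of the probes), and Lcn2 rose in βL muscle. At an unadjusted p under 0.05 there were 1268 probes (10.4%), of which 659 (5.39% of all) were higher and 609 (4.98%) lower in βL muscle. With each gene taken by its brightest probe, 8663 genes were measured, their median difference was -0.02 and 47.4% of them lay above 0 (46.0% of the probes). A gene is called separated below when its 3 βL arrays did not overlap its 3 CR arrays and its unadjusted p was under 0.05. Of all genes, 399 (4.61%) were separated and higher, with a median difference of 0.60, and 334 (3.86%) were separated and lower, with a median of -0.45. Of the probes, 4.21% and 4.09% were. Whatever their p, 654 genes (7.55%) were higher and 719 (8.30%) lower with no overlap, and so were 6.94% and 8.49% of the probes. The tails of the distribution were unequal, since 87 genes differed by more than 1 upward and 10 downward. The detection rule was met only through βL arrays by 269 probes, of which 119 were higher with no overlap, and only through CR arrays by 130 probes, of which 54 were lower with no overlap. With each array scaled to its median in place of quantile normalization, 1337 probes were higher and 199 lower at an unadjusted p under 0.05, and the median of all probes was 0.11 in place of -0.02. Small differences below are therefore read against the median of all genes. Counts of separated genes are read against the 4.61% higher and 3.86% lower over all genes.

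Shown here are the promoters of Lcn2, the gene that was called, of Hamp2 and Slpi, which had the largest differences, and of Alas2, the heme enzyme of the red cell genes. Each is the stretch of 250 bases before the start of the gene, taken from RefSeq on GRCm38.p6 and written 5′ to 3′ on the strand of the gene. The stretch of Lcn2 lies at chr2:32387740-32387989 (minus strand), that of Slpi at chr2:164356508-164356757 (minus strand), that of Hamp2 at chr7:30924182-30924431 (minus strand) and that of Alas2 at chrX:150547167-150547416 (plus strand). Capitals mark matches to 3 motifs on either strand, namely TTGCNNAA for C/EBP factors in Lcn2 and Slpi, TTCNNNGAA for STAT factors in Hamp2, and AGATAA for GATA factors in Hamp2 and Alas2.
Lcn2: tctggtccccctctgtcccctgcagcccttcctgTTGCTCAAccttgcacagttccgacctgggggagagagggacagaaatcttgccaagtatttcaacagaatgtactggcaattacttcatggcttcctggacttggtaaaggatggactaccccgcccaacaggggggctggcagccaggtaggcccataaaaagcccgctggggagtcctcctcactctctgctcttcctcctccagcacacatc
Slpi: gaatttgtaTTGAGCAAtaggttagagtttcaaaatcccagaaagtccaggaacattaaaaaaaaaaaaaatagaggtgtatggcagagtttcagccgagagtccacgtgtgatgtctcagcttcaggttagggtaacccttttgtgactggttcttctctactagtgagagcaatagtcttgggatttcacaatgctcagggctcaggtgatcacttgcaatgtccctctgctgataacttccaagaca
Hamp2: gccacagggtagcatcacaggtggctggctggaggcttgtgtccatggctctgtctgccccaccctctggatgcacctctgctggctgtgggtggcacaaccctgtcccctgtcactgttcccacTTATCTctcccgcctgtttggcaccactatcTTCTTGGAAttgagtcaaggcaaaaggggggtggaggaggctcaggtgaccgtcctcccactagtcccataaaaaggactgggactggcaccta
Alas2: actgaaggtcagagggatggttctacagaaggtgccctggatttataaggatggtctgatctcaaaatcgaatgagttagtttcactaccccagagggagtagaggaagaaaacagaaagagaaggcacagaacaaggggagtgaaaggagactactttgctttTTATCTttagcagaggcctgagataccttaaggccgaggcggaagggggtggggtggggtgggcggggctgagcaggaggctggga
The C/EBP letters of Lcn2 stood 216 to 209 bases before the start of the gene and those of Slpi, on the reverse strand, 241 to 234 bases before it. The STAT letters of Hamp2 stood at 94 to 86 bases and its GATA letters, on the reverse strand, at 125 to 120 bases. In Alas2 the GATA letters lay on the reverse strand at 86 to 81 bases. Over 32851 promoters of the same length, 9.56% held the C/EBP letters, 7.02% the STAT letters and 9.99% the GATA letters. The motifs were chosen after the values had been seen, and a match is a description of the letters only.

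Lcn2 encodes lipocalin 2, a secreted protein that binds bacterial siderophores, which carry iron, and that neutrophils and many stressed cells release. Its log2 intensities were 6.40, 6.48 and 6.37 in βL muscle, against 4.61, 4.85 and 4.75 in CR muscle. The βL arrays lay close together, well above all CR arrays, and the probe was above background on 3 βL arrays and on 0 CR arrays. The means were 6.42 ± 0.06 and 4.74 ± 0.12 (SD, n = 3 each), a difference of 1.68 (SE 0.13; limma, adjusted p = 0.0155). With CR set at the bound of detection, Lcn2 was at least 1.87-fold higher in βL muscle in these normalized values. Such a bound sets the mean of the bright group against the mean, in the dim group, of the lowest signal above background or the probe's own signal if that was higher. The call was kept under 12 of 20 other ways of processing, whose adjusted p ran over 0.00512 to 0.342 and whose log2 difference ran over 0.65 to 2.02. The difference was 0.65 without background correction and 0.95 with the deposited normalized values. It was lost without βL replicate 1 (adjusted p = 0.152), βL replicate 3 (0.143), CR replicate 1 (0.128) or CR replicate 3 (0.0996), each in limma's fit on 5 arrays. In muscle of control mice, normalized with the other 6 arrays, Lcn2 was at 5.20 and 5.03 and was above background on 0 of 2 arrays.

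Hamp2 and Slpi had the largest log2 differences of all separated genes in this fit, although each was above background on 1 of 3 CR arrays, so that the size of the difference depends on the background correction. Hamp2 belongs to the hepcidin family of peptides, whose founding member limits iron export from cells. It measured 11.16, 9.90 and 10.58 in βL muscle, against 4.86, 6.90 and 5.05 in CR muscle. Every βL array exceeded the highest CR array, replicate 2, which was the only CR array above background. The difference was 4.94 (SE 0.54; limma, adjusted p = 0.108), so that the gene did not pass over all probes. It was 3.25 without background correction and 3.47 with the deposited normalized values. It passed without CR replicate 2 (adjusted p = 0.0115) and without βL replicate 2 (0.0438) in limma's fit, and with the deposited normalized values (0.00830). Both control muscles were below background, at 5.06 and 5.09.

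Slpi encodes a secreted inhibitor of neutrophil elastase and related proteases that epithelial and mesothelial cells and leukocytes make. Its values were 10.24, 9.06 and 10.76 in βL muscle and 5.39, 5.29 and 7.19 in CR muscle. Again the lowest βL array stood above the highest CR array, here replicate 3, the only CR array where the probe was detected. The difference was 4.07 (SE 0.58; limma, adjusted p = 0.212), and it was 2.64 without background correction and 2.81 with the deposited normalized values. Kng1, which encodes kininogen and is best known from liver, measured 7.83, 7.38 and 8.88 in βL muscle and 5.73, 6.42 and 5.83 in CR muscle, a difference of 2.04 (SE 0.37; limma, adjusted p = 0.212). Cyp4f39, a cytochrome P450 gene, differed by 1.88 and was detected on 1 CR array. Of 14 hepatocyte markers on the array, 1 passed detection, the cytochrome P450 gene Cyp2e1, with a difference of -0.05, and their part in the values of Hamp2 and Kng1 was not tested.

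**Figure D1:**
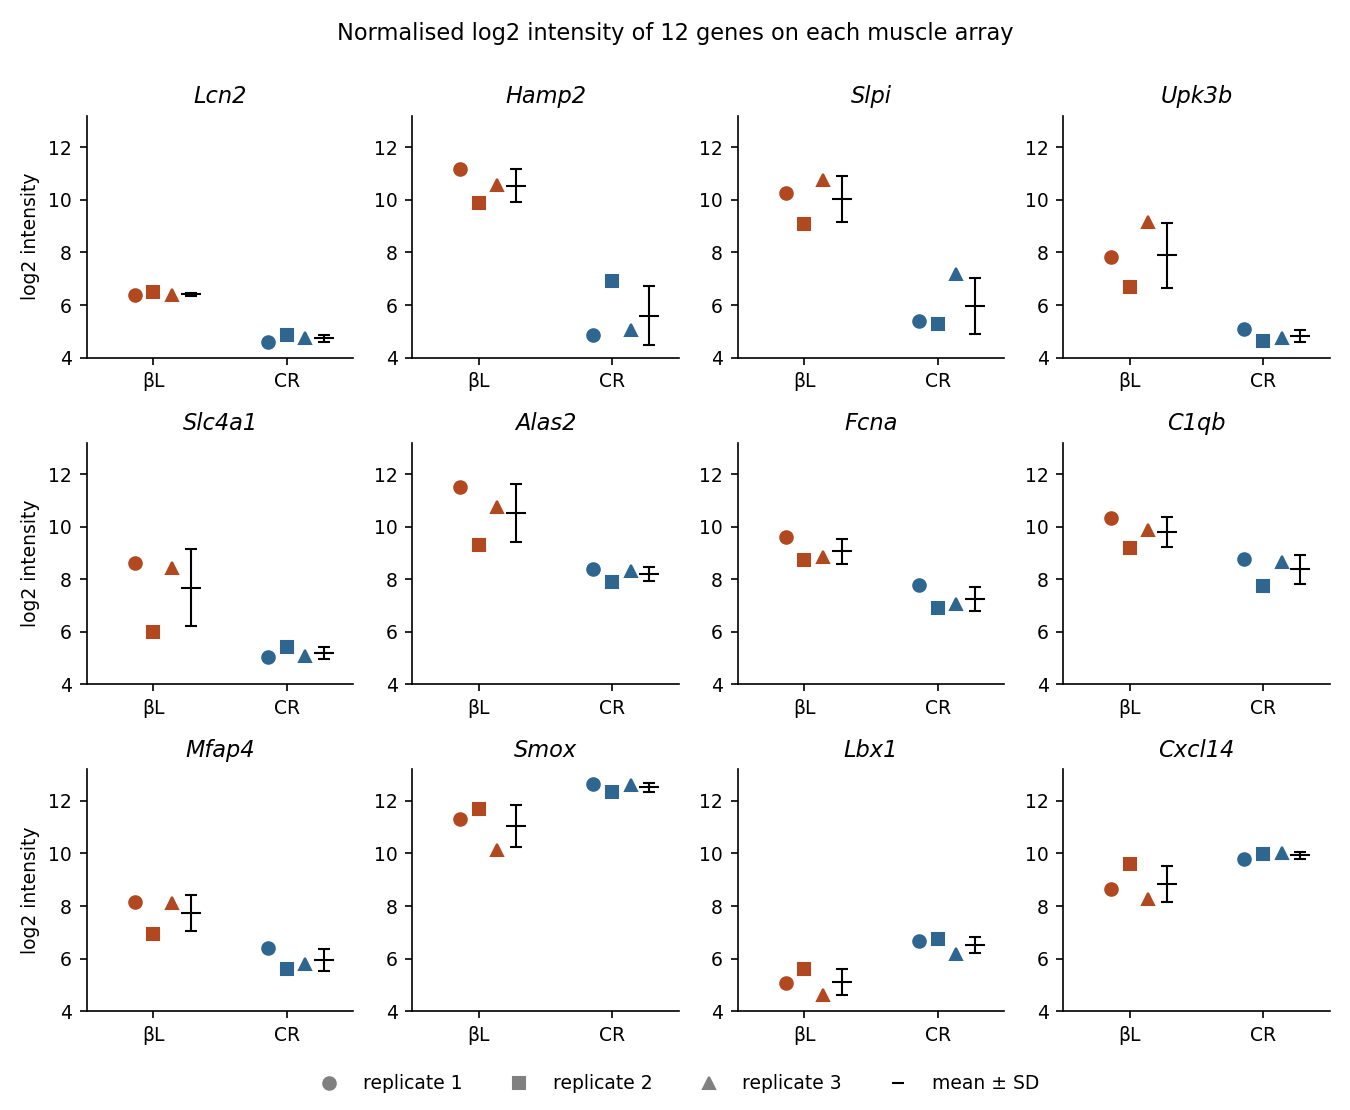
Normalized log2 intensity (vertical axis) of 12 genes on each array, βL muscle at the left of each panel and CR muscle at the right. Points are arrays and bars are group means with their SD (n = 3). For Lcn2 the βL points sit between 6.37 and 6.48 and the CR points between 4.61 and 4.85, and for Smox the βL points, between 10.14 and 11.68, lie below the CR points, between 12.33 and 12.65.

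Several genes of red blood cells were separated and higher in βL muscle, with 0 called on the 6 arrays. Hba-a1, the alpha chain of adult hemoglobin, was at 15.77, 15.38 and 15.82 in βL muscle and at 14.59, 14.21 and 14.69 in CR muscle. The arrays did not overlap, and the difference was 1.16 (SE 0.19, 2.24-fold; limma, adjusted p = 0.212). Hbb-bt, a beta chain, was at 10.53, 9.17 and 10.28 against 8.31, 7.53 and 8.06, a difference of 2.02 (SE 0.36; limma, adjusted p = 0.212). The chains have near-identical copies in the genome, so a probe may read more than 1 gene.

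Alas2, the enzyme that starts heme synthesis in red cell precursors, measured 11.49, 9.32 and 10.75 in βL muscle and 8.38, 7.91 and 8.32 in CR muscle, a difference of 2.32 (SE 0.48; limma, adjusted p = 0.314). Slc4a1, the band 3 anion exchanger of the red cell membrane, was at 8.62, 5.99 and 8.43 in βL muscle, against 5.04, 5.44 and 5.10 in CR muscle. It was below background on all CR arrays, which puts it at least 4.49-fold higher (limma, adjusted p = 0.317). In each of these 4 genes βL replicate 2 was the lowest βL array. Without it, a choice that favours a call, limma called Slc4a1 (adjusted p = 0.00394), Alas2 (0.0438) and Hbb-bt (0.0438). All 5 measured genes of the red cell list lay above 0 and 3 were separated, against 4.61% of all genes, with a median of 1.16. Of these Slc4a1 passed detection only through the βL arrays, where it is high. The other members were Bpgm at 0.28 and Fech, the last enzyme of heme synthesis, at 0.14. The median was 2.11 without βL replicate 2 and 1.80 without CR replicate 1, and 3 of 4 measured genes were separated in each case. Summed red cell intensity, most of it from Hba-a1, ran over 43502 to 60187 on βL arrays and 19380 to 27061 on CR arrays. In bulk tissue, more cells of a type and more RNA in each cell cannot be told apart.

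All 18 measured genes of the macrophage list had differences above 0, with a median of 0.94 and a range of 0.23 to 1.41, where the median of all genes was -0.02. Of the 18, 10 were separated and higher and 0 were called, against 4.61% separated and higher over all genes. The cathepsin gene Ctss passed detection only through βL arrays. Without βL replicate 2, 14 of 18 were separated, and without CR replicate 1 it was 11 of 18. The centred median of the list was 0.94, -0.10 and 0.36 on the βL arrays and -0.28, -0.74 and -0.22 on the CR arrays, so that every βL array stood above every CR array. Their summed level ran over 14867 to 31933 on βL arrays and 8630 to 13958 on CR arrays.

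The genes with the smallest p were surface receptors and complement components. Mrc1, the mannose receptor of tissue macrophages, measured 9.94, 9.55 and 9.53 in βL muscle and 8.89, 8.48 and 8.78 in CR muscle, a difference of 0.96 (SE 0.17; limma, adjusted p = 0.212). C1qb, a chain of the first component of complement, was at 10.32, 9.19 and 9.89 in βL muscle and 8.76, 7.75 and 8.65 in CR muscle, a difference of 1.41 (SE 0.34). Adgre1, which encodes the macrophage antigen F4/80, was at 7.70, 6.68 and 7.55 against 6.38, 4.97 and 6.45, with a difference of 1.38. Each of these 3 was separated, and in each the lowest βL array was above the highest CR array by less than 1. The lysozyme gene Lyz2 differed by 1.19, the scavenger receptor gene Cd163 by 0.97 and the lysosomal membrane gene Laptm5 by 0.98, all separated. The members that were not separated included Cd14, the co-receptor for endotoxin, at 0.28, and Aif1 at 0.23.

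A second list, of genes of macrophages resident in tissue, was drawn up after the values were seen, so its counts are a description. All 18 of its measured genes lay above 0 and 13 were separated, where 4.61% of all genes were separated and higher. The median of the list was 1.11, and 1 of the 18, the chemokine gene Ccl6, passed detection only through βL arrays. Fcna, a ficolin that binds sugars on microbes and starts the lectin pathway of complement, led it with 9.61, 8.74 and 8.85 in βL muscle, against 7.77, 6.91 and 7.04 in CR muscle (difference 1.83, SE 0.30; limma, adjusted p = 0.212). Ms4a6d, a membrane protein of macrophages, had the smallest unadjusted p of the list, at 8.12, 7.67 and 8.13 against 6.73, 6.25 and 6.60 (difference 1.45, SE 0.19; limma, adjusted p = 0.212). Vsig4, a complement receptor, differed by 1.50, the hyaluronan receptor gene Lyve1 by 1.55, the chemokine gene Ccl9 by 1.60 and the secreted factor gene Retnla by 1.43. Timd4 and Maf were at 0.05 and 0.06.

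The complement list partly overlaps the macrophage list. All 8 of its measured genes had differences above 0, with a median of 0.79, and 5 were separated and 0 called, where 4.61% of all genes were separated and higher. C1s1, a protease of the first component, passed detection only through βL arrays. C4b, which feeds the classical and lectin pathways, was at 10.06, 9.27 and 9.92 in βL muscle and 8.43, 9.17 and 8.60 in CR muscle (difference 1.02). Serping1, the inhibitor of the first component, was at 12.58, 11.88 and 12.39 against 11.76, 11.61 and 11.60 (difference 0.63). In both, βL replicate 2 was the βL array nearest to CR. C1qc differed by 1.23 and C1qa by 0.93, and the arrays of C1qa overlapped.

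The lists of neutrophil granule and acute phase genes held some separated members. S100a9, which pairs with S100a8 to form the calprotectin of neutrophils, was at 7.18, 5.59 and 6.27 in βL muscle and 4.73, 4.75 and 4.91 in CR muscle, below background on all CR arrays and at least 1.78-fold higher. S100a8 was at 9.14, 7.53 and 7.54 against 6.58, 7.37 and 6.79, and βL replicate 1 was the highest array in both. Of 14 genes in the neutrophil granule list 6 passed detection, with a median of 0.88. Of these, 3 were separated and higher, against 4.61% of all genes. Lcn2 and S100a9, which make up 2 of these 3, passed only through the βL arrays, where they are high, so neither the count nor the median tells of the list as a whole. The defining granule genes Ngp, Camp, Mpo, Prtn3, Retnlg and Mmp8 were not above background on 2 arrays, and Ltf and Elane, which passed, differed by 0.09 and 0.21. Summed granule intensity ran over 492 to 1034 on βL arrays and 321 to 366 on CR arrays, and the part of neutrophils in the rise of Lcn2 was not tested. The median was 1.39 without CR replicate 2.

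All 10 measured acute phase genes lay above 0, with a median of 0.61. Of these, 2 were separated, where 4.61% of all genes were separated and higher, and Lcn2 is again 1 of these 2. Serpina3n, a protease inhibitor of the acute phase, measured 9.70, 9.44 and 9.17 in βL muscle and 7.84, 9.03 and 8.62 in CR muscle (difference 0.94). Saa3, a serum amyloid made outside the liver, was at 9.36, 6.22 and 6.01 against 4.998, 5.41 and 5.91, so its difference of 1.76 rested on βL replicate 1. The haptoglobin gene Hp differed by 0.82 with overlapping arrays. The list median was 1.07 without βL replicate 3. Lymphocyte markers were scarce, with 3 of 13 on the array detected, and Cd3g, a chain of the T cell receptor complex, differed by 0.82. Of 12 interferon response genes 6 lay above 0 and 0 were separated. The 14 antigen presentation genes had a median of 0.26, with 13 of them above 0 and 0 separated.

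**Figure D2:**
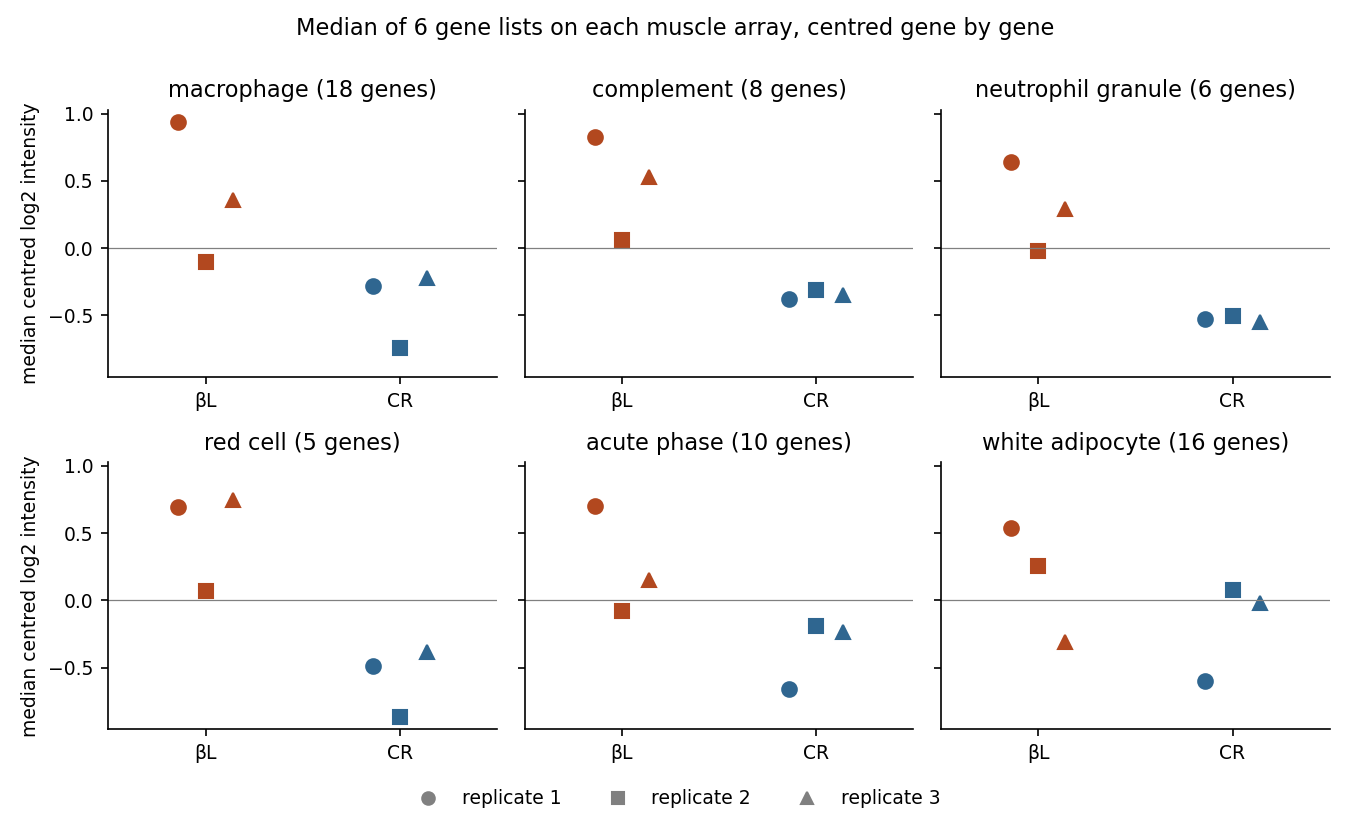
Median level of the measured genes of 6 lists on each array, each gene centred on its mean over the 6 arrays (vertical axis, log2), βL arrays at the left and CR arrays at the right. Every βL macrophage median, from -0.10 to 0.94, lies above the CR medians of -0.74 to -0.22, whereas in the white adipocyte panel the arrays of the 2 diets overlap.

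A further set of genes that stood out is known from the mesothelium, the layer that lines body cavities and the sheaths of organs. Upk3b, a uroplakin of mesothelial cells, was at 7.81, 6.70 and 9.16 in βL muscle and 5.09, 4.63 and 4.77 in CR muscle, where it was below background on every array. It was at least 5.19-fold higher (log2 difference 3.06, SE 0.53; limma, adjusted p = 0.212), and its second probe differed by 1.87. Wt1, a transcription factor of mesothelium, was at 5.71, 5.32 and 7.68 against 4.74, 4.71 and 4.70, and Upk1b at 5.67, 5.01 and 8.12 against 4.55, 4.65 and 4.72. Both were below background on every CR array and above it on 2 βL arrays. In all 3 genes βL replicate 3 was the highest array. Dmkn, a secreted protein of epithelia, differed by 1.74, and the tight junction gene Cldn10 by 1.88.

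A mesothelial list, put together after these values were seen, had 8 measured genes of 13 on the array, with a median of 1.58. Of the 8, 5 were separated and higher and 1 separated and lower, against 4.61% and 3.86% of all genes. Upk3b, Upk1b and Wt1, 3 of these 5, passed detection only through the βL arrays, where they are high, so the count and the median are a description of those that passed. Without βL replicate 3 the median was 0.84. Its summed level ran over 1229 to 3489 on βL arrays and 573 to 684 on CR arrays. The defining genes Msln, Krt19, Lrrn4 and Muc16 were not above background on 2 arrays. Krt8, a keratin of simple epithelia, differed by -0.18, and its partner Krt18 was at 5.60, 5.05 and 5.03 in βL muscle, against 5.84, 6.39 and 6.61 in CR muscle (difference -1.05). The part of such cells in the values of Slpi and Upk3b was not tested.

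Some genes of matrix proteins that organize elastic and collagen fibres were separated and higher. Mfap4, a glycoprotein of elastic fibres, measured 8.14, 6.95 and 8.10 in βL muscle and 6.41, 5.60 and 5.80 in CR muscle (difference 1.80, SE 0.35; limma, adjusted p = 0.258). Fbln1, a fibulin of the matrix, was at 10.003, 9.01 and 10.38 against 8.24, 7.53 and 8.09 (difference 1.85, SE 0.35; limma, adjusted p = 0.240), and its other probe differed by 0.99. Col16a1, a collagen that sits on the surface of fibrils, was the most even of them, at 8.75, 8.23 and 8.53 against 7.45, 7.47 and 7.46 (difference 1.05, SE 0.16; limma, adjusted p = 0.212). Without βL replicate 2, a choice that favours a call, limma called Mfap4 and Fbln1 (adjusted p = 0.0438 each).

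Thbs2, a matricellular thrombospondin, differed by 1.12, the integrin-like gene Itgbl1 by 1.11, tenascin X (Tnxb) by 0.91 and elastin (Eln) by 0.91, all separated. A list of 20 such genes, again drawn up after the values were seen, had a median of 0.78. Of the 20, 10 were separated and higher, against 4.61% of all genes, and the member Col14a1 passed detection only through βL arrays. The list of collagens and matrix genes had 19 measured members with a median of 0.12. Of these, 3 were separated and higher, against 4.61% of all genes, namely Bgn at 0.61, Col3a1 at 0.51 and Col5a1 at 0.47. Col1a1 was at 9.08, 8.43 and 8.36 in βL muscle and 8.69, 8.77 and 8.25 in CR muscle, with overlapping arrays. Endothelial genes, 13 measured, had a median of -0.04 and a summed level of 15455 to 19480 on βL arrays and 16951 to 19170 on CR arrays. Among smooth muscle and pericyte genes Lmod1 was separated and higher (1.10), and Pdgfrb (-0.61) and Rgs5 (-0.50), both of pericytes, were separated and lower.

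Genes of the slow-twitch sarcomere had the largest list median among those with 12 or more genes, but the arrays within each group differed widely. All 12 measured genes lay above 0, with a median of 1.48 and a range of 0.76 to 2.18. Tpm3, the slow tropomyosin, was at 10.43, 9.11 and 10.82 in βL muscle and 9.82, 7.53 and 6.46 in CR muscle (difference 2.18, SE 0.80). Myh7, the slow myosin heavy chain, was at 9.51, 7.65 and 9.33 against 8.31, 7.30 and 6.03 (difference 1.62, SE 0.64). Csrp3, a Z-disc protein that senses stretch, was at 12.79, 12.75 and 13.92 against 12.83, 10.53 and 10.62 (difference 1.83, SE 0.61). In each of them CR replicate 1 reached into the range of the βL arrays, and 0 of the 12 genes were separated, although 6 had an unadjusted p under 0.05. The 2 control muscles were normalized with the other 6 arrays for comparison. They were at 4.995 and 9.78 for Tpm3, 4.99 and 8.66 for Myh7, and 5.62 and 12.41 for Csrp3. In these genes the 2 arrays of the control diet thus lay further apart than the means of βL and CR.

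The centred medians of the slow list were 0.76, 0.05 and 1.33 on the βL arrays and 0.69, -1.14 and -1.64 on the CR arrays. Without CR replicate 1 the median was 2.10 and 12 of 12 genes were separated, without CR replicate 3 the median was 0.96, and without βL replicate 2 there were 8 of 12. With both βL replicate 2 and CR replicate 1 left out, limma called the slow calcium pump gene Atp2a2. The fast-twitch list did not follow. Of 14 measured genes, 3 lay above 0 and the median was -0.07. Its separated member was Myh1, the IIx myosin, at 12.25, 12.16 and 12.42 in βL muscle and 12.05, 11.75 and 11.13 in CR muscle (difference 0.63). Myh4, the IIb myosin, was at 13.92, 14.68 and 14.16 against 14.05, 14.29 and 14.74, with a difference of -0.10. Whether the brightest fast probes were saturated was not tested. The muscle taken is not named in the sources used here, and its part in the slow genes was not tested.

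**Figure D3:**
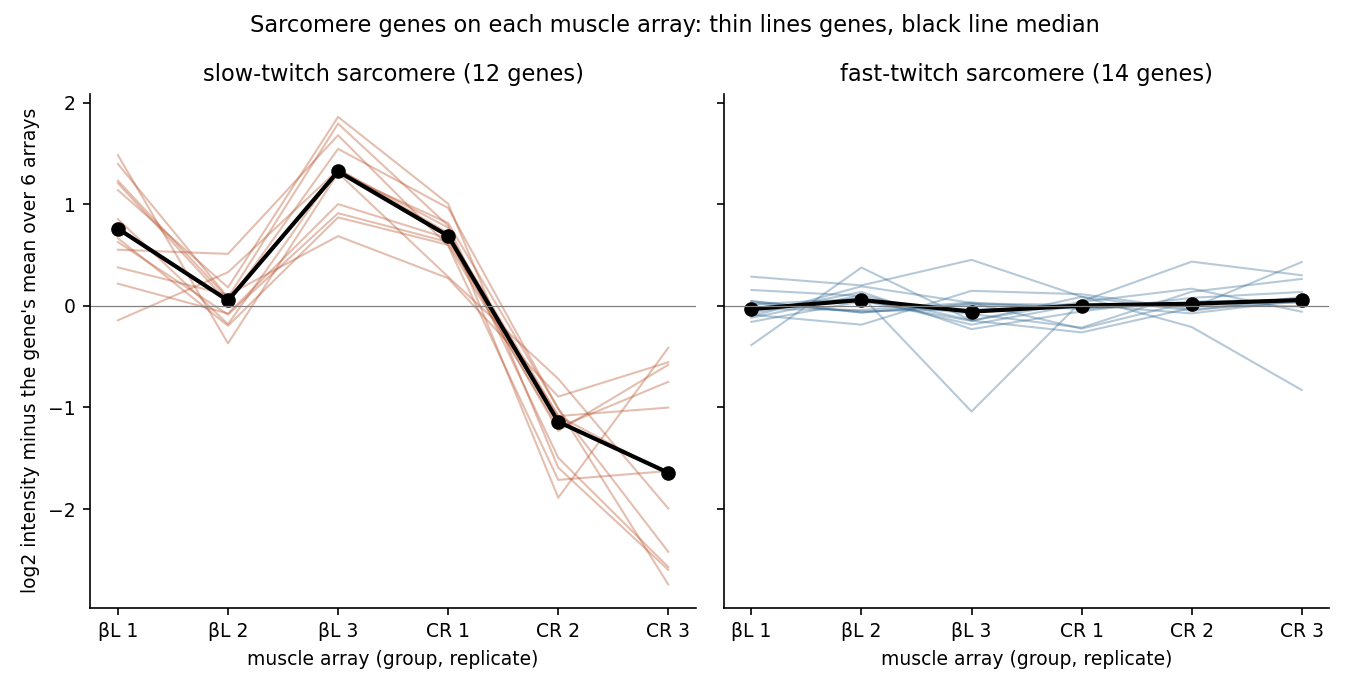
Level of each of 12 slow-twitch (one panel) and 14 fast-twitch genes (the other panel) on the 6 arrays, centred on the mean of the gene (vertical axis, log2), βL arrays at the left and CR arrays at the right. Thin lines are genes, the black line is their median, and replicates have no order. The median of the slow genes is 0.76, 0.05 and 1.33 on the βL arrays, against 0.69, -1.14 and -1.64 on the CR arrays, and the fast genes stay between -0.06 and 0.06 on all arrays by their median.

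The genes lower in βL muscle differed less. Smox, the spermine oxidase of polyamine breakdown, was at 11.32, 11.68 and 10.14 in βL muscle and 12.65, 12.33 and 12.58 in CR muscle (difference -1.48, SE 0.36; limma, adjusted p = 0.314), and its 4 other probes ran from -1.63 to -1.35. Lbx1, a homeobox factor of migrating limb muscle precursors, was at 5.08, 5.61 and 4.63 against 6.68, 6.73 and 6.16 (difference -1.42, SE 0.27; limma, adjusted p = 0.240). Cxcl14, a chemokine, was at 8.64, 9.58 and 8.26 against 9.78, 9.998 and 10.02 (difference -1.11, SE 0.31). In these 3 genes βL replicate 3 was the lowest array and βL replicate 2 the βL array nearest to CR.

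Cd28, best known as a co-receptor of T cells, was at 6.80, 7.71 and 6.92 in βL muscle and 8.45, 7.78 and 8.64 in CR muscle (difference -1.15), while its other probes gave -0.57 and -0.30. Acsl6, an acyl-CoA synthetase, was at 10.05, 10.53 and 10.05 against 10.71, 11.14 and 11.44 (difference -0.89). The remaining 10 of the 15 lower genes with the largest differences ran from -1.05 to -0.86 and included the chloride channel gene Clic5 (-0.86), the protocadherin gene Pcdh17 (-0.98), the surface oxidase gene Enox2 (-1.001) and the sorting receptor gene Sorcs1 (-0.90), beside Tada2a, Stxbp4, Sh3tc2, Hoxa9 and Krt18. Olfr917 was below background on all βL arrays and at least 1.27-fold lower there. The control muscle mean, in a normalization of all 8 muscle arrays, was nearer to CR than to βL in 14 of these 15 lower genes and in 10 of the 15 higher ones. Over all separated genes it was nearer to CR in 277 of 399 higher genes (69.4%) and in 219 of 334 lower ones (65.6%). Smox in particular was at 13.40 and 12.07 in control muscle.

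The Hox genes, homeobox genes that mark position along the body, were separated about as often as all genes. Of 18 measured, 1 was separated and higher and 1 separated and lower, where the shares over all genes were 4.61% and 3.86%, and their median was -0.06. Hoxc6 was at 11.02, 10.18 and 11.47 in βL muscle and 9.85, 9.26 and 9.22 in CR muscle (difference 1.45). Hoxa9 was at 4.94, 5.81 and 5.66 against 6.61, 6.11 and 6.44 (difference -0.92). Both were separated. Hoxd10 was at 6.48, 9.43 and 7.07 against 8.55, 9.50 and 10.09, and Hoxc10 at 9.53, 11.19 and 10.45 against 11.15, 11.24 and 11.41, where βL replicate 2 lay with the CR arrays. Among other patterning factors Zic1, a zinc finger factor of early development, was at 5.45, 5.77 and 7.97 in βL muscle and below background in CR muscle at 4.86, 4.77 and 4.65, at least 1.84-fold higher. Tbx3 differed by 0.86 and Shox2, a limb homeobox gene, by -0.81. These genes were grouped after their values were seen, and whether the same muscle or part of it was sampled in all mice was not tested.

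Of 15 genes of the neuromuscular junction and of excitation, a list chosen after the values were seen, 2 were separated and lower, where 3.86% of all genes were. The median was -0.25, with 10 of the 15 below 0 and 5 above it. Clcn1, the chloride channel that stabilizes the resting fibre, was at 6.60, 7.004 and 6.73 in βL muscle and 7.55, 7.58 and 7.45 in CR muscle (difference -0.75, SE 0.15; limma, adjusted p = 0.27). Ache, the acetylcholinesterase, was at 5.96, 5.65 and 5.92 against 6.90, 6.50 and 6.25 (difference -0.71). Both were separated and lower, whereas Chrne, the adult subunit of the acetylcholine receptor, had overlapping arrays (difference -0.88). Lrp4, the receptor for agrin, differed by 0.35.

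Lists of energy metabolism lay near the median of all genes. The 52 measured genes of oxidative phosphorylation had a median of -0.06, with 35 of them below 0. Of these 52, 1 was separated and higher, the cytochrome c gene Cycs (0.42), and 0 were separated and lower. Whatever their p, 7 were lower and 1 higher with no overlap, against 8.30% and 7.55% of all genes. Medians were -0.04 for 22 genes of the citric acid cycle and -0.10 for 14 of glycolysis. They were -0.13 for 12 of glycogen metabolism and 0.15 for 22 of fatty acid oxidation. Synthesis of fatty acids and triglycerides (18 genes) had a median of 0.01 and sterol synthesis (13 genes) one of 0.06. White adipocyte genes had a median of 0.33 over 16 genes. Of these, 3 were separated and higher and 1 separated and lower, against 4.61% and 3.86% of all genes. Lpl, the lipase that takes up plasma triglyceride, was at 15.07, 14.94 and 15.16 in βL muscle and 14.56, 14.75 and 14.55 in CR muscle (difference 0.43), and Dgat2, which makes triglyceride, differed by 0.53. Gpd1, the glycerol phosphate dehydrogenase, was at 9.73, 10.02 and 9.32 against 10.26, 10.12 and 10.37 (difference -0.56). Adipoq, which encodes adiponectin, was at 12.55, 12.02 and 11.16 against 10.47, 11.43 and 11.50, with overlapping arrays. The summed adipocyte level was 91383 to 111865 on βL arrays and 62866 to 75829 on CR arrays. Bright genes such as Lpl made a large part of this sum, so it says little of the dimmer members. The centred median of the list ran over -0.31 to 0.54 on βL arrays and -0.60 to 0.08 on CR arrays, which overlapped.

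Genes of NAD metabolism and of the NRF2 response were also close. Nqo1, the enzyme that reduces βL, was at 9.14, 8.99 and 8.87 in βL muscle and 8.92, 8.83 and 9.07 in CR muscle, a difference of 0.06 with overlapping arrays. Nampt, the enzyme that sets the rate of NAD+ salvage, differed by 0.09, and the deacetylase genes Sirt1 and Sirt3 by -0.10 and 0.10. Of 17 measured genes of NAD metabolism Sirt7 was separated and higher (0.35) and Nqo2 separated and lower (-0.33), with a median of 0.03. Of 21 NRF2 targets, the glutathione transferase gene Gsta3 (0.87) and the catalase gene Cat (0.41) were separated and higher, with a median of 0.01. Among mitochondrial regulators Ppargc1b, a coactivator of the PGC-1 family, was at 9.54, 9.77 and 9.52 in βL muscle and 10.24, 10.10 and 10.01 in CR muscle (difference -0.50), and the median of 19 genes was -0.06. Ppargc1a differed by -0.36 and the mitochondrial transcription factor gene Tfam by -0.25, both with overlapping arrays. The uncoupling protein gene Ucp3 was at 8.38, 8.48 and 7.87 against 8.60, 8.81 and 8.52 (difference -0.40, unadjusted p = 0.0698 in limma's fit).

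Lists of stress and turnover genes held few separated members. Hspa1a, the inducible heat shock protein 70, was at 8.69, 8.35 and 9.77 in βL muscle and 7.85, 6.81 and 6.85 in CR muscle (difference 1.77, SE 0.41; limma, adjusted p = 0.314), and its co-chaperone gene Hsph1 differed by 0.60. The 16 heat shock genes had a median of 0.15. Of these, 2 were separated and higher and 1, Dnajb4 (-0.50), separated and lower, against 4.61% and 3.86% of all genes. Mt1, a metallothionein that binds zinc and copper, was at 12.63, 13.07 and 13.13 against 11.99, 12.05 and 12.49 (difference 0.77). Psmb1, a subunit of the proteasome core, was at 10.80, 11.67 and 11.24 against 11.97, 12.08 and 12.12 (difference -0.82). Of 25 proteasome genes 20 lay below 0, with a median of -0.12, where that of all genes was -0.02. Psmb1 and Psmb7 (-0.35) were the 2 separated and lower, against 3.86% of all genes. Whatever their p, 6 of the 25 were lower with no overlap, against 8.30% of all genes. Clock genes, 15 measured, had a median of 0.09 with 0 separated, and the 21 autophagy genes, 14 atrophy genes and 19 insulin and IGF genes had medians of 0.02, -0.12 and 0.04. In these lists the mitophagy receptor gene Bnip3l (0.45) and the IGF-binding protein gene Igfbp6 (0.79) were separated and higher, while Gadd45a, a growth arrest gene, differed by -0.76 with overlapping arrays. Atf5, a transcription factor of the stress response, was at 10.19, 9.84 and 10.24 in βL muscle and 9.80, 9.27 and 8.98 in CR muscle (difference 0.74), and Jund, a part of the AP-1 factor, was at 5.97, 6.20 and 6.31 against 5.24, 5.64 and 5.71 (difference 0.63). Both were separated, as was the thymidylate synthase gene Tyms (0.61). Of the 15 immediate early genes 13 lay above 0 with a median of 0.41, and Jund alone was separated.

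The genes that the study singled out in muscle were chosen on these same arrays, so their values are no independent evidence. The list held 25 genes, of which 20 were on the array and 15 were measured. All measured ones are genes that the study reported as higher than on the control diet. Genes that it reported as lower were not among those measured, so the values do not describe them. Of the 15 measured, 11 lay above 0 and 0 were separated, with a median of 0.42. Of the slow-twitch genes among them, Tnnc1, the slow troponin C, was at 15.29, 14.13 and 15.37 in βL muscle and 14.87, 13.05 and 11.64 in CR muscle (difference 1.74). Tnnt1, the slow troponin T, was at 14.67, 13.50 and 15.01 against 14.43, 12.46 and 10.72 (difference 1.86). CR replicate 1 lay inside the βL range in both. Myl2 and Myl3, light chains of slow myosin, differed by 0.97 and 0.90, and Myoz2, a Z-disc protein of slow fibres, by 0.76. Sln, which encodes the calcium pump regulator sarcolipin, differed by 0.11, and the sulfotransferase gene Chst1 by 0.05. Among clock genes Per1 differed by 0.28, Per2 by -0.10, Dbp by -0.03 and Ciart by 0.42, and among lipid genes the desaturase gene Scd1 differed by -0.50 and Cidec, which coats lipid droplets, by 0.51. All of these overlapped between the diets. Nrf1, a factor for genes of respiration, differed by 0.07.

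**Figure D4:**
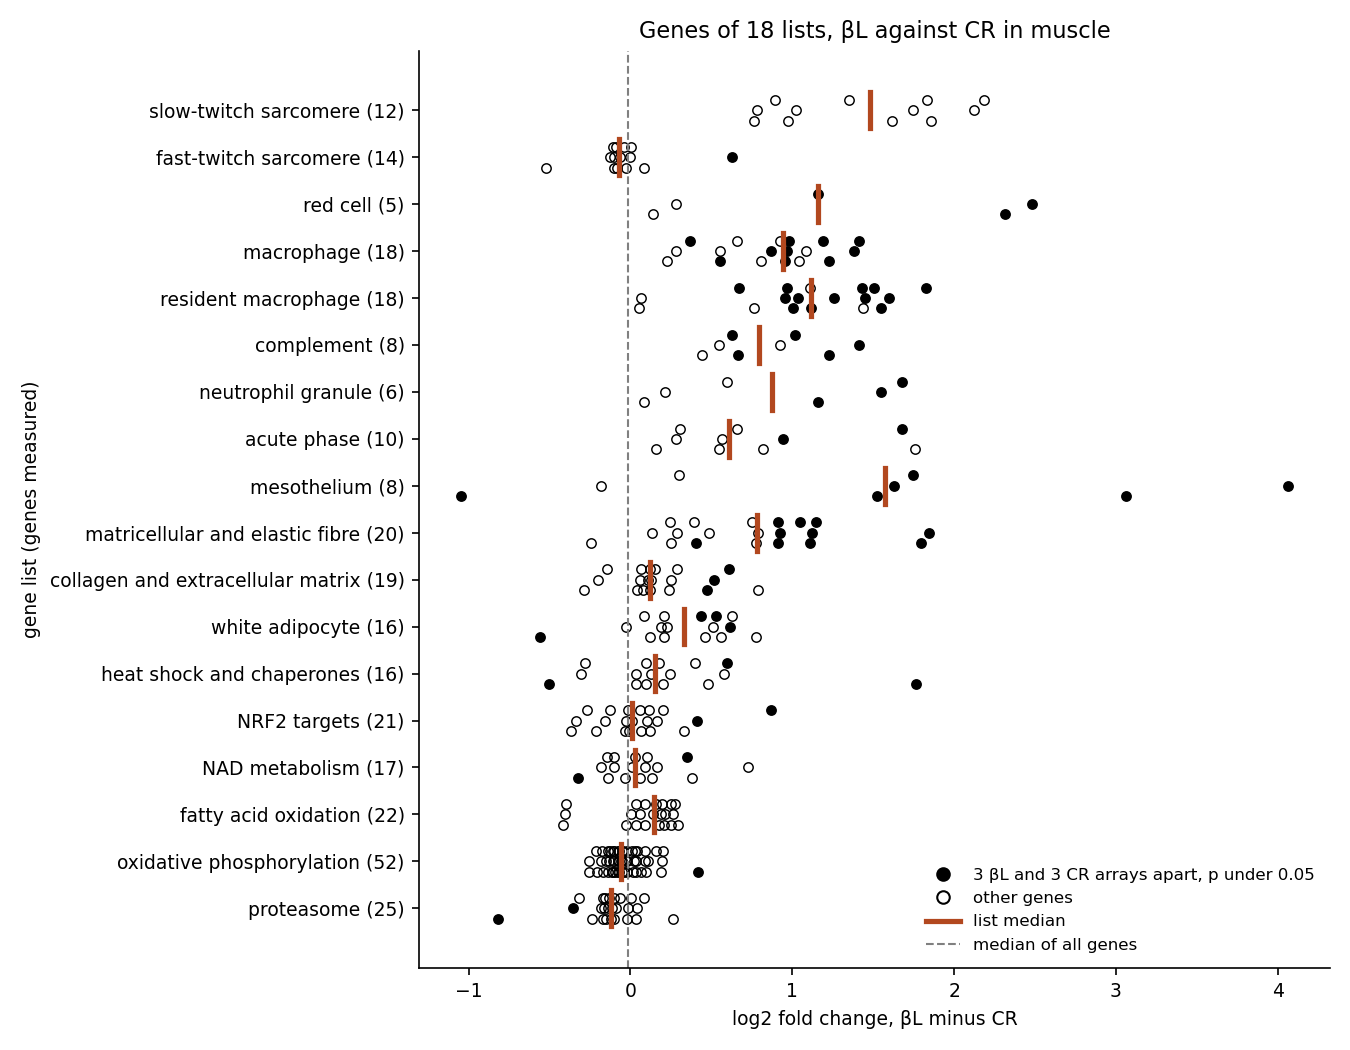
Difference βL minus CR (horizontal axis, log2) of each measured gene of 18 lists, with the median of each list as a bar and the median of all genes, -0.02, as a dashed line. Filled points are separated genes. The macrophage list has a median of 0.94 with all 18 genes above 0, the slow-twitch list 1.48, and the list of oxidative phosphorylation -0.06.

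The same comparison in brain, with 2 arrays of each diet, shows which differences were also seen there. In a fit of all 10 βL and CR arrays, limma's interaction of tissue and diet was called for 6 of 15534 probes, of which 1 was more positive in muscle. That probe was Lcn2, with an interaction of 1.96 (SE 0.17; limma, adjusted p = 0.0071), a difference of 0.03 in brain and no brain array above background. Since its CR muscle arrays were below background too, the brain difference is one between background values, and the interaction restates the muscle difference. The other 5 probes, of Kl, Ttr, Cldn2, Prkcd and Aqp1, had larger positive differences in brain. Hemoglobin genes were higher on βL in brain too, by 1.63 for Hba-a1 and 1.28 for Hbb-bt, and Alas2 by 1.48. The interaction was not called for these 3 (limma, adjusted p = 0.803, 0.851 and 0.890). Hamp2 and Slpi differed by 0.08 and 0.04 in brain, where neither was detected, with interactions of 4.79 and 3.88 that were not called either (limma, adjusted p = 0.219 and 0.353). For Smox the brain difference was -0.23, and Fcna was not detected in brain.

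**Figure D5:**
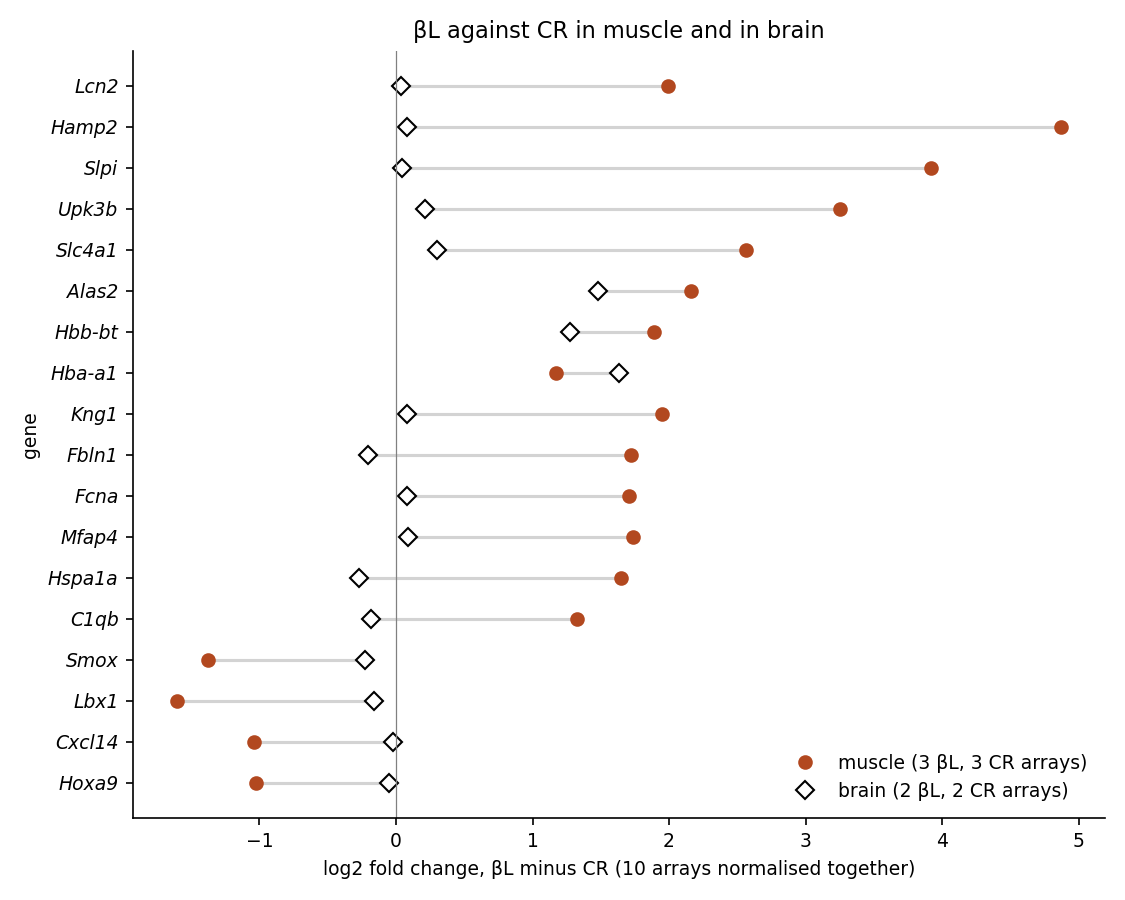
Difference βL minus CR in muscle and in brain (horizontal axis, log2) for 18 genes, from the 10 arrays normalized together. Filled circles are muscle and open diamonds brain. Lcn2 stands at 1.99 in muscle and 0.03 in brain, where it was not above background, and Hba-a1 at 1.18 in muscle and 1.63 in brain. Hamp2, Slpi, Upk3b, Kng1, Fcna and Mfap4 were among the other genes not above background in brain. Slc4a1 was above it on 1 brain array.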

How the data were processed

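Muscle and brain RNA of male C57BL/6 mice was measured on 14 Illumina Mouse-8 v2 BeadChip arrays of 25697 probes. For every array the authors deposited the intensity of each probe before normalization, read out by BeadStudio, and a detection p-value that compares it with the negative control beads. They also deposited a table of quantile-normalized intensities. The methods name Avadis for the fold changes and significance of the arrays, with no test named there, and a t-test for data in general. Slide and scan are not given in the sources used here. The groups and the numbers of replicates were read from the labels.

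Starting from the 6 arrays of βL and CR muscle before normalization, the background was modelled with limma's nec (normexp, offset 16, negative controls estimated through the detection p-values). Quantile normalization and log2 followed (limma 3.58.1 under R 4.3.3). A probe stayed in if its detection p was under 0.05 on 2 or more of the 6 arrays. The difference βL minus CR came from lmFit and eBayes, with Benjamini-Hochberg adjustment over 12224 probes, where an adjusted p under 0.05 was a call. The brightest probe stood for a gene. The comparison with brain was an interaction term over 10 arrays that were normalized together. One symbol was given for 23978 probes and none for 1719. The number of arrays limits the precision.

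The members and the 44 gene lists were chosen with earlier results of these data known, and 6 further lists were added after the values here were seen. No list was tested. The text names every gene called, per direction the 15 separated genes with the largest difference, and the measured genes that the study reported for muscle or measured by PCR. For lists described in detail it names up to 4 members with the smallest p, and for other lists fewer or none. Any other gene was chosen with its values in view. The fit and its calls were run on simulated log2 values with known changes. Background correction, normalization and the detection filter were not part of that check. Alternatives changed the background correction, normalization, detection filter, arrays fitted, test and replicate block, left out each array in turn, or started from the deposited normalized intensities.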

Additional observations from a re-analysis of the deposited data

Results flagged for a closer look

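The interaction of tissue and diet was called for Lcn2. In the fit of the 10 βL and CR arrays the difference was 1.99 in muscle and 0.03 in brain, and the interaction was 1.96 (SE 0.17; limma, adjusted p = 0.0071). All 3 βL muscle arrays were above all 3 CR muscle arrays, whereas 0 of the 4 brain arrays and 0 of the 3 CR muscle arrays were above background. The brain difference is thus one between background values, and the interaction restates the difference in muscle rather than a measured contrast between tissues.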

How the results depend on the processing

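Probes called higher in βL muscle numbered 1, and 2 with the deposited normalized values, median scaling, an offset of 50 or all 8 muscle arrays, 3 with a trend in eBayes, and 0 with the methods' t-test, where 1007 probes had an unadjusted p under 0.05. Leaving out 1 array gave 0 to 14, with 14 without βL replicate 2, the βL array nearest to CR, and 3 without CR replicate 2. It was 0 in limma's fit without βL replicate 1, βL replicate 3, CR replicate 1 or CR replicate 3, where 1119, 916, 1246 and 945 probes had an unadjusted p under 0.05. Leaving out both βL replicate 2 and CR replicate 1, a choice made after seeing the data, gave 4. Probes called lower were 0 throughout. Separated probes numbered 515 higher and 500 lower, against 1071 and 149 with median scaling, 805 and 864 with no filter, and 846 higher with both arrays left out. Leaving out 1 array gave 469 to 805 higher and 391 to 755 lower. The cause of these shifts was not tested.

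Whether the replicate numbers pair the arrays is not stated. Same-numbered βL and CR arrays had correlations of their deviations of 0.07, 0.18 and -0.01. βL replicate 3 and CR replicate 1, with unlike numbers, also reached 0.18, so these weak values cannot decide it. With the replicate number as a block limma called 0 probes, with 1407 at an unadjusted p under 0.05, and the adjusted p of Lcn2 was 0.0895.

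Lcn2 was also not called without background correction (limma, adjusted p = 0.0907) or with both arrays left out (0.0567). The median of the neutrophil granule list was 0.44 without background correction, 0.55 with the deposited values, 0.17 with no filter and 1.16 with the stricter filter. That of the mesothelial list was 0.72 without background correction and 0.67 with no filter, and that of the red cell list 0.34 with no filter. Fits were also made without each array in turn, and without βL replicate 2 and CR replicate 1 together. Over these fits, medians ran over 0.96 to 2.60 for slow-twitch, -0.097 to -0.018 for fast-twitch and 0.87 to 1.39 for neutrophil granule genes. They ran over 1.00 to 2.18 for red cell, 0.47 to 1.07 for acute phase and 0.84 to 2.10 for mesothelial genes. Oxidative phosphorylation turned to 0.01 and the PCR genes to 0.071 with median scaling. Over the same fits with arrays left out, the PCR genes ran over -0.29 to 0.0018 and nerve genes over -0.44 to 0.027. No gene that was followed through every alternative changed direction. Most of these genes were named for large or separated differences, so a change was unlikely from the start. Genes with small differences, such as Nqo1 and Sirt1, were not followed. With 3 arrays a group, dim probes are the least certain, since the background correction sets the size of their differences.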

Other observations

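In brain, 5 probes differed more between βL and CR than in muscle (limma's interaction over 10 arrays). Ttr, the transthyretin that the choroid plexus secretes, was higher on βL in brain by 3.30, Kl by 2.19, the water channel gene Aqp1 by 1.84, Prkcd by 1.37 and the tight junction gene Cldn2 by 1.05. In brain Aqp1 and Cldn2 were each above background on 2 of the 4 arrays. In muscle Kl, Ttr and Cldn2 were not detected.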
